A study of Mus musculus with 123 samples.

Results

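The 33 neurons described here were picked by hand from dorsal root ganglia (DRGs) of the injured side 7 days after sciatic nerve transection (SNT), and were divided by their own level of Atf3. Cells with Atf3 of 500 CPM or more (counts of a gene after scaling the counts of a cell to a total of 1000000) formed the Atf3-high group of 12 cells, cells with Atf3 below 100 CPM formed the Atf3-low group of 21 cells, and 0 cells lay between the limits. They are 33 of the 106 cells in the authors' table without outliers. All were from two-month-old C57BL/6 mice, 16 cells from females and 17 from males, and the right sciatic nerve had been cut at mid thigh. The sample titles and the study's methods place these cells at day 7, while their protocol label names both 3 and 7 days. The 14 control-side cells are neurons of the uncut side of such mice at day 7, 7 female and 7 male. The protocol of the day 7 cells names ganglia L3 to L5, while 1 passage of the study names L5, and a mid-thigh cut leaves some neurons of these ganglia with intact axons, so a cell of the injured side was not known to have been cut. No label names an animal, so the cells of a side and day count as 1 sample, no test was made, and every difference below is a description of these cells.

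Atf3 encodes a transcription factor of the ATF/CREB family that is hardly transcribed in an intact sensory neuron and is made after its peripheral axon is cut, which is why it is widely used to mark axotomized neurons. It belongs to a programme of injury genes that includes other transcription factors such as Jun and Sox11, growth-cone and cytoskeletal genes and neuropeptides. In the same neurons many ion channels and transmission genes of the intact state decline. DRG neurons fall into large myelinated neurons, marked by neurofilament heavy chain (Nefh), and nociceptors, among which the peptidergic ones carry the peptide CGRP (Calca) and the sodium channel Nav1.8 (Scn10a).

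The cells were selected on Atf3, so its values are given only to show the split. In the 12 Atf3-high cells Atf3 was 704 CPM in the lowest, 1076 CPM in the median and 1778 CPM in the highest cell. In the 21 Atf3-low cells it was at 0 in 13 and 13.9 CPM in the highest. Thus the cell just inside the upper limit had 704 CPM and the cell just inside the lower limit 13.9 CPM, with at least 220 counts of Atf3 in every Atf3-high cell. The 14 control-side cells reached 29 CPM with a median of 3.89 CPM, which overlapped the whole Atf3-low range. Of the Atf3-high cells 8 were female and 4 male, and of the Atf3-low cells 8 were female and 13 male.

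**Figure D1:**
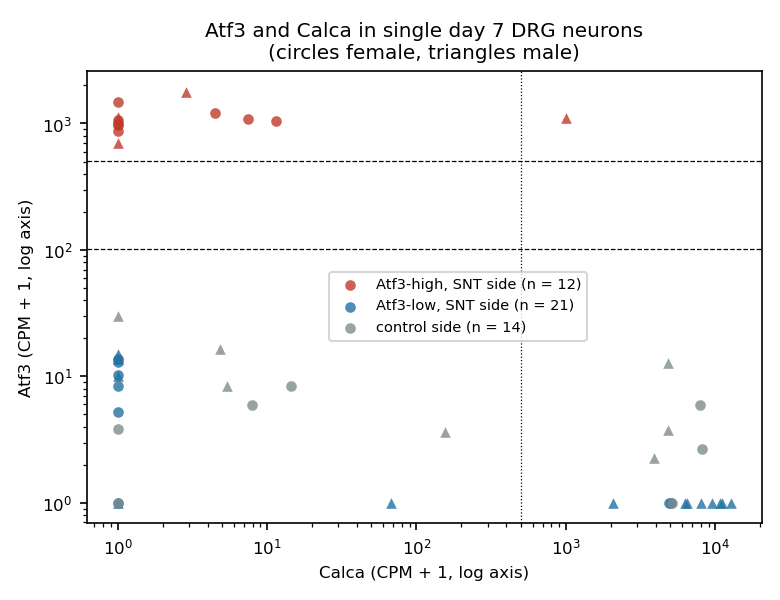
Each point is 1 day 7 cell, with Calca (horizontal, CPM + 1, log axis) against Atf3 (vertical, CPM + 1, log axis), circles for female and triangles for male cells; dashed lines mark Atf3 of 500 and 100 CPM and the dotted line Calca of 500 CPM. The 12 Atf3-high cells stand at 704 CPM of Atf3 or more and all but 1 have little Calca, whereas the 21 Atf3-low cells divide into 11 with little and 10 with much Calca.

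The groups also differed in the classes of neuron they held. Calca was at 500 CPM or more in 1 of the 12 Atf3-high cells (8.33%, exact 95% interval 0.211 to 38.5%). It was so in 10 of the 21 Atf3-low cells (47.6%, 25.7 to 70.2%), beside 6 of the 14 control-side cells (42.9%, 17.7 to 71.1%). Intervals of shares of cells, here and below, take cells as independent draws and leave out the spread among mice. Small, medium and large neurons were picked in nearly equal number, so such shares do not estimate those of the ganglion. Scn10a passed 100 CPM in 0 of 12 Atf3-high cells, in 10 of 21 Atf3-low cells and in 7 of 14 control-side cells. Its highest value among Atf3-high cells was 29.1 CPM, against 2021 CPM among Atf3-low cells. Pvalb, a calcium-binding protein of proprioceptors, passed 100 CPM in 2 Atf3-high and 6 Atf3-low cells and in 0 control-side cells. Nefh was present in every cell of both groups, from 480 to 2822 CPM in Atf3-high and from 347 to 8013 CPM in Atf3-low cells. Because a lower count of a gene over a group could come from fewer cells of a class or from less RNA per cell, each comparison was repeated in the cells with Calca below 500 CPM, which are 11 Atf3-high cells (8 female, 3 male) and 11 Atf3-low cells (6 female, 5 male).

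Total counts were 312340 to 965292 (median 742948) in Atf3-high and 261351 to 836279 (median 513059) in Atf3-low cells, and 510014 or more in control-side cells. Thinned to 200000 counts each, the cells held 9633 to 10894 detected genes (median 9882.5) in the Atf3-high and 9761 to 10911 (median 10302) in the Atf3-low group. The summed level of 14 satellite and Schwann cell markers was 908 to 11638 CPM in Atf3-high and 708 to 14196 CPM in Atf3-low cells, and that of 11 immune cell markers had medians of 8.32 and 5.13 CPM, with 1 cell of each group far above (412 and 760 CPM). The erythrocyte markers summed to 5002 CPM in 1 Atf3-high cell, which is also the one with Calca above 500 CPM, and to at most 35.1 CPM in the Atf3-low group. The 9 vessel and fibroblast markers had medians of 122 and 44.2 CPM, and their part in the results was not tested. The pan-neuronal genes were high in every cell, with sums of 18632 to 28788 CPM in Atf3-high and 11692 to 20481 CPM in Atf3-low cells. The larger sums do not hold for the 14 genes alike. By the rule given below 2 were higher (Tubb3 and Stmn2) and 4 lower (Snap25, Rbfox3, Isl1 and Pou4f1), with a median log2 ratio of -0.16.

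Atf3-high cells differed from Atf3-low cells in many genes besides Atf3. Of 9638 genes whose mean reached 10 CPM in 1 or both groups, Atf3 left out, 623 (6.46%) were higher in Atf3-high cells and 759 (7.88%) were lower. Higher means that the log2 ratio of mean CPM + 1 was above 1 and that the Atf3-high cell had the larger value in at least 75% of all pairs of 1 Atf3-high and 1 Atf3-low cell, and lower is the mirror of this. The median log2 ratio over all measured genes was -0.13. For 74 genes (0.768%) every Atf3-high cell lay above every Atf3-low cell, and for 19 genes (0.197%) every Atf3-high cell lay below. These percentages are the background for the counts of gene groups below.

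The 12 higher and 12 lower genes with the largest ratios, among those ordered the same way in at least 90% of pairs, were nearly silent in 1 of the groups. Sprr1a, which encodes a small proline-rich protein known to promote axon outgrowth, was 786 CPM in the lowest, 3020 CPM in the median and 4867 CPM in the highest Atf3-high cell, while 16 of 21 Atf3-low cells were at 0 and the highest had 3.1 CPM (log2 ratio 11.03). The groups did not overlap, and the control side stayed at or below 2.78 CPM. Npy, the peptide neuropeptide Y, ranged from 9.28 to 6483 CPM (median 1164) in Atf3-high cells and was at 0 in 20 of 21 Atf3-low cells, with 6.49 CPM in the other (log2 ratio 10.31). It was at 0 in all control-side cells. Nts, the peptide neurotensin, was 95.2, 317 and 1262 CPM in the lowest, median and highest Atf3-high cell and at most 2.63 CPM in Atf3-low cells, where 3 counts were found in all (ratio of pooled counts 1498, exact 95% interval 512 to 7268, counting error only).

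Further genes of this kind encode a range of products. Gpr151, an orphan receptor of the G protein-coupled family, had 32.8 to 557 CPM (median 235) in Atf3-high cells and 2 counts in all Atf3-low cells (ratio of pooled counts 1337, 370 to 11051). Fst, the activin-binding protein follistatin, had 36.1 to 478 CPM (median 162) against at most 4.78 CPM. Car3, a carbonic anhydrase, had 18.2 to 1014 CPM (median 339) against at most 5.13 CPM, although some control-side cells reached 44.7 CPM. Tmem159 had 7.3 to 265 CPM against at most 4.72 CPM. In each of these 4 genes the groups did not overlap.

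The remaining 5 of the 12 largest were off in 1 or more Atf3-high cells or overlapped slightly. Ucn, the peptide urocortin, was at 0 in 1 Atf3-high cell and reached 263 CPM in another, with 0 counts in the 21 Atf3-low cells. Its mean of 68.2 CPM was thus at least 259-fold above the level of 3 counts over the Atf3-low group. Anxa10, a calcium-dependent phospholipid-binding protein, was at 0 in 2 Atf3-high cells and reached 585 CPM in 1 (median 16.3), with 0 counts in Atf3-low cells, which makes its mean at least 365-fold higher. Car1, another carbonic anhydrase, had a median of 80.6 CPM in Atf3-high cells, and Gpr133, an adhesion receptor, had 50.9 CPM, each with 1 Atf3-high cell at 0. Xdh, xanthine dehydrogenase, had 6.78 to 297 CPM against 0 to 9.38 CPM, so that its groups overlapped in their tails.

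Promoter sequence was at hand in the RefSeq table (build GRCm38.p6) for 5 of these 12 genes, and 4 of them hold a letter match to a motif that ATF and AP-1 factors are known to bind. The motifs searched were TGANTCA (the AP-1 form) and TGACGTCA (the cAMP response element), on both strands, neither of which contains the other. The sequences below are the 250 bases before the transcription start, on the strand of the gene, in lower case with matches in capitals. They show where the matches lie in Sprr1a (chr3:92485882-92486131, minus strand), Nts (chr10:102490419-102490668, minus strand), Anxa10 (chr8:62123194-62123443, minus strand) and Ucn (chr5:31138896-31139145, minus strand).
Sprr1a: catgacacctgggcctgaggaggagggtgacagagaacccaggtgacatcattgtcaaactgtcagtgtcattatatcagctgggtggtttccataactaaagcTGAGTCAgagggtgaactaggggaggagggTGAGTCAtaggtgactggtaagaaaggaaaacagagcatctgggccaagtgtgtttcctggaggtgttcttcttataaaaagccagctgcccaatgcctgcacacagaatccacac
Nts: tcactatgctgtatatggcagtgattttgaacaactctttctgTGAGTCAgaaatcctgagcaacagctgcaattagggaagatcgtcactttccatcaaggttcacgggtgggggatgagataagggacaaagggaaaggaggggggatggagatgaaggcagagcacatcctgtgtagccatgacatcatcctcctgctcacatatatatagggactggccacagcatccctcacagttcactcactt
Anxa10: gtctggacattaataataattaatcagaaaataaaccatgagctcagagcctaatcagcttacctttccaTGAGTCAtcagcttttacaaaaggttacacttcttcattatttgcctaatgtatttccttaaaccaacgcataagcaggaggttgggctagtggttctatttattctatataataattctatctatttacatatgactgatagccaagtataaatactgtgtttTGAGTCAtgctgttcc
Ucn: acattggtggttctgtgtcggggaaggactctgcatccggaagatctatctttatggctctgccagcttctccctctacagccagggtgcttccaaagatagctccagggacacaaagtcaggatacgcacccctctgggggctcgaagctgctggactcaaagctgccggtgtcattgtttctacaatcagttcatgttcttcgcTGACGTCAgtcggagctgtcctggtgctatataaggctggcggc
Sprr1a holds TGANTCA 140 to 146 and 110 to 116 bases before the start, Nts holds it 201 to 207 bases before, and Anxa10 holds it 174 to 180 and 10 to 16 bases before. Ucn holds TGACGTCA 37 to 44 bases before the start. The Npy window (chr6:49822460-49822709, plus strand) holds neither. Over all 32851 promoter windows of this length TGANTCA occurs in 6.75% and TGACGTCA in 1.55%. A window was held for 488 of the 623 higher genes (78.3%), so a share over them leaves out the others. Among these 488, TGANTCA occurs in 8.4% and TGACGTCA in 3.5%, against 5.3% and 3.3% of the 7720 measured genes with a window. Among the 58 genes with a window and every Atf3-high cell above, the shares are 6.9% and 0%. The matches in 4 of 5 named genes are thus not typical of the higher genes. A match is a description and no evidence that a factor binds.

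**Figure D2:**
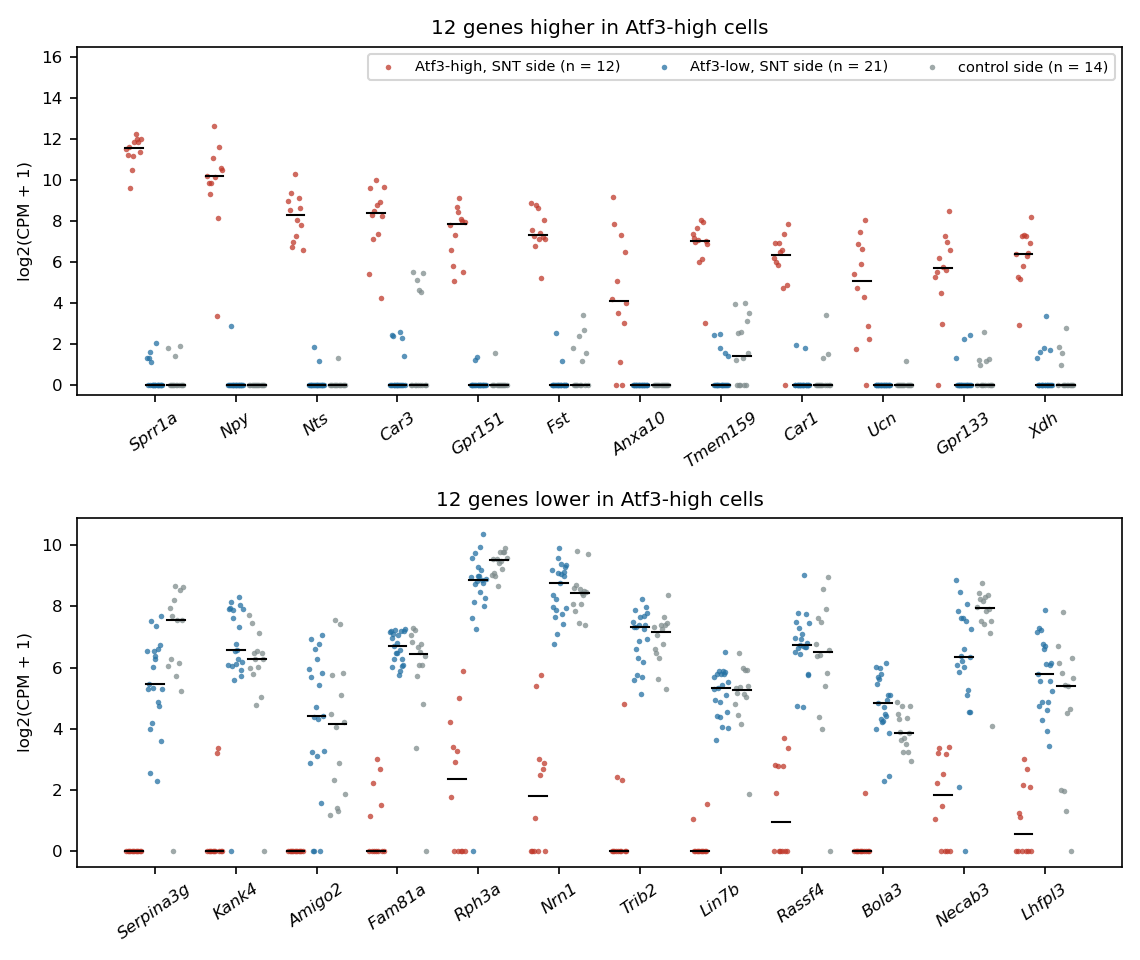
For the 12 higher (upper panel) and 12 lower genes (lower panel) with the largest log2 ratios, each point is 1 day 7 cell, with log2(CPM + 1) on the vertical axis and a black bar at the median of the 12 Atf3-high, 21 Atf3-low and 14 control-side cells. The higher genes are near 0 in Atf3-low cells and, apart from Car3 with up to 44.7 CPM, low in control-side cells, and the lower genes are near 0 in most Atf3-high cells and present in both other groups.

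The lower genes showed the opposite arrangement, with Atf3-high cells at or near 0. Serpina3g, a serine protease inhibitor of a family with near-identical copies among which reads may be divided, had 0 counts in all 12 Atf3-high cells and 3.9 to 207 CPM (median 42.8) in the 21 Atf3-low cells, so that the latter were at least 187-fold higher. Nrn1, a neuritin known to promote neurite growth, was 0 to 53.5 CPM (median 2.87) in Atf3-high and 107 to 969 CPM (median 432) in Atf3-low cells (log2 ratio -5.31). The groups did not overlap in either gene. The control-side median of Nrn1, 350 CPM, lay inside the Atf3-low range. That of Serpina3g, 188 CPM (cells from 0 to 406 CPM), lay well above the Atf3-low median. Trib2, a pseudokinase, was at 0 in 9 of 12 Atf3-high cells and at 34.4 CPM or more in every Atf3-low cell. Fam81a, Rassf4 and Lhfpl3 also separated completely, with highest Atf3-high cells of 6.99, 12 and 6.99 CPM and lowest Atf3-low cells of 53.1, 25 and 9.78 CPM.

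The other 6 lower genes are of varied function. Rph3a, a Rab3 effector of vesicle release, had a median of 4.44 CPM in Atf3-high and 464 CPM in Atf3-low cells, with 1 Atf3-low cell at 0. Lin7b, a scaffold protein of cell junctions, had 2 counts in all Atf3-high cells and 11.4 to 89.97 CPM in Atf3-low cells (ratio of pooled counts 164, 45.1 to 1356). Bola3, a mitochondrial iron-sulphur assembly protein, likewise had 2 counts against 3.83 to 69.2 CPM (ratio 136, 37.5 to 1131), and neither gene overlapped. Kank4 (median 0 against 93.8 CPM), the adhesion protein Amigo2 (0 against 20.3 CPM) and the calcium-binding protein Necab3 (2.69 against 79.7 CPM) complete the 12, each with at least 1 Atf3-low cell at 0. Amigo2 had 0 counts over the Atf3-high group, so its Atf3-low mean was at least 113-fold higher.

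Among transcription factors of the injury response 9 of 18 measured members were higher, 9 were counted as neither and 0 were lower, with a median log2 ratio of 1.24. Sox11, a factor required for regeneration of sensory axons, was 252 to 517 CPM (median 384) in Atf3-high and 0 to 49.9 CPM (median 12.2) in Atf3-low cells (log2 ratio 4.81). Jun, the AP-1 partner of Atf3, was 267 to 517 CPM (median 372) against 1.20 to 250 CPM (median 93.8), a ratio of 1.88. In both the groups did not overlap, but some control-side cells reached 378 CPM of Jun, inside the Atf3-high range. Smad1, which transmits bone morphogenetic protein signals, had medians of 151 and 30.9 CPM, and Klf6 had 165 and 45.7 CPM, with overlap. The other 5 were Klf7, Crem, Bach1, Nfil3 and Atf5, the last with a log2 ratio of only 0.39 in female cells.

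A list of 42 genes that the study took as known regeneration genes had 28 of 38 measured members higher and 0 lower (median log2 ratio 2.01). The study drew these genes from groups of co-expressed genes in its day 3 cells, so the list was chosen on injured neurons of this series, though not on the day 7 cells, and is no independent evidence of direction. Non-overlapping members included the adhesion protein Flrt3 (276 to 917 against 1.96 to 32.8 CPM), the guidance protein Sema6a (235 to 749 against 0 to 59.2 CPM), the cell-cycle inhibitor Cdkn1a (332 to 765 against 0 to 175 CPM) and the growth-arrest gene Gadd45a (70.8 to 626 against 3.91 to 46.3 CPM). The integrin subunits Itga7 (387 to 984 against 28.7 to 185 CPM) and Itgb1 (282 to 739 against 81.8 to 224 CPM) also separated.

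**Figure D3:**
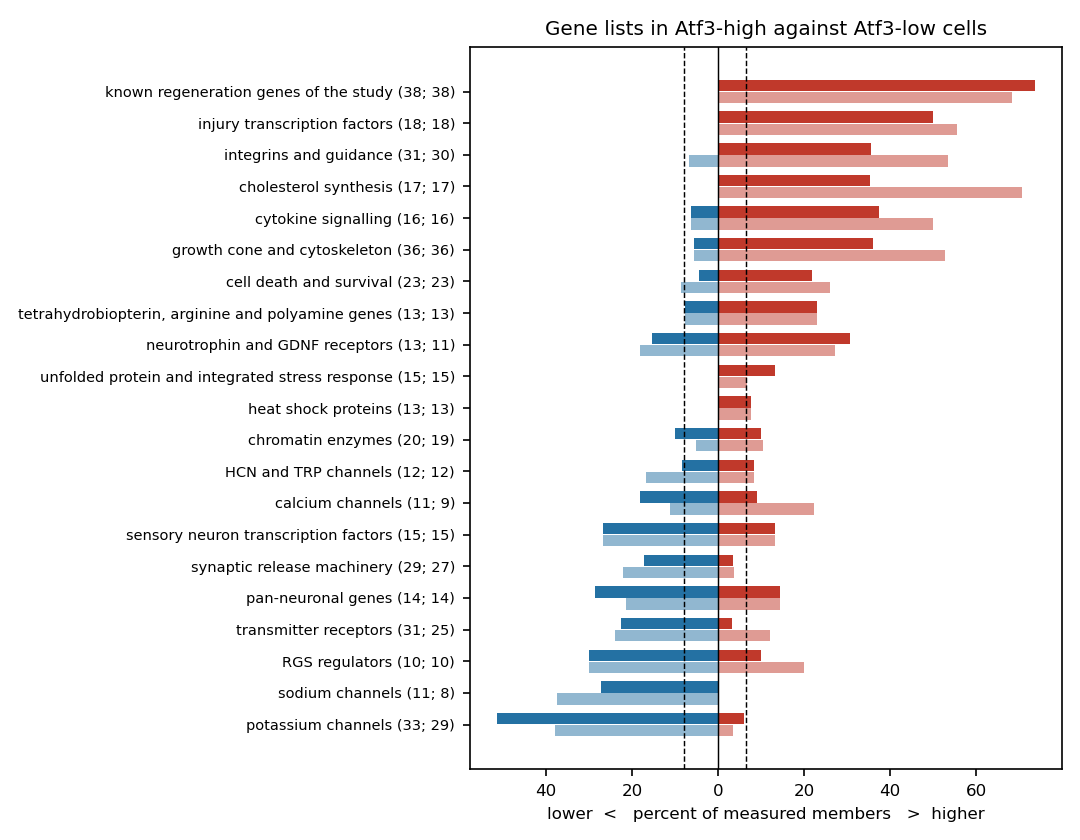
Percent of measured members of each gene list that were higher (red, to the right) or lower (blue, to the left) in Atf3-high than in Atf3-low cells, over all 33 cells (dark bars) and over the 22 cells with Calca below 500 CPM (pale bars), with the number measured in each in brackets. Dashed lines mark 6.46% higher and 7.88% lower among all 9638 measured genes over the 33 cells, and apply to the dark bars only. For the pale bars the shares over all 9463 measured genes were 9.37% and 10.2%. Of 33 potassium channel genes 17 lie to the left, and of 18 injury transcription factors 9 lie to the right.

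Among growth-cone and cytoskeletal genes more were higher than lower. Of 36 measured members 13 were higher and 2 lower, the 2 being the neurofilament genes Nefh and Nefl. Stmn2, a regulator of microtubule dynamics in growing neurites, was 6498 to 9887 CPM in Atf3-high cells and 1443 to 4358 CPM in Atf3-low cells, without overlap (log2 ratio 1.74). It was also the most even of the higher genes with a mean of 100 CPM or more, with a coefficient of variation of 0.127 among the 12 Atf3-high cells against a median of 0.398 over 236 such genes. Stmn4 (60.8 to 193 against 0 to 42.2 CPM) and the tubulin gene Tubb6 (86.4 to 597 against 0 to 64.1 CPM) separated too. The alpha-tubulin gene Tuba1a and the neuronal tubulin gene Tubb3 had log2 ratios of 1.26 and 1.19 with some overlap, and reads of tubulin genes may be shared between close copies.

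Gap43, a membrane protein of growth cones, differed between the classes of Atf3-low cells. It was 1001 to 3382 CPM (median 1555) in Atf3-high cells. In the 10 Atf3-low cells with Calca at or above 500 CPM it was 656 to 1329 CPM (median 1080), and in the 11 with little Calca it was 0 to 300 CPM (median 1.34). The log2 ratio was therefore 1.64 over all cells and 5.59 in cells with little Calca, where the groups did not overlap. The 8 control-side cells with little Calca had at most 47.6 CPM.

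Among adhesion and guidance genes 11 of 31 measured members were higher and 0 lower. Besides the integrins they included Ncam1 (median 490 against 134 CPM), Chl1 (399 against 39.8 CPM) and Cd44 (135 against 2.23 CPM), which are cell adhesion molecules of the nervous system or, for Cd44, a hyaluronan receptor. Cd44 reached 633 CPM in 1 Atf3-low cell, so it overlapped over all cells, while with little Calca the highest Atf3-low cell had 11.7 CPM and no overlap remained.

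Neuropeptides held some of the largest ratios and varied widely among the Atf3-high cells. Of 9 measured, Npy, Nts, Adcyap1 and Ucn were higher and 0 were lower. Adcyap1, the peptide PACAP, was 0 to 1102 CPM (median 414) in Atf3-high and 0 to 343 CPM (median 0) in Atf3-low cells. Gal, galanin, was counted as neither, because 6 of 12 Atf3-high cells were at 0. The other 6 held 49.6, 121, 419, 694, 2147 and 8330 CPM, and the highest was the cell with Calca of 998 CPM. Gal thus passed 100 CPM in 5 of 12 Atf3-high cells (41.7%, exact 95% interval 15.2 to 72.3%), in 1 of 21 Atf3-low cells (4.76%, 0.120 to 23.8%) and in 0 of 14 control-side cells. The Atf3-low cell was a female cell with 289 CPM of Gal, 0 Atf3, 4884 CPM of Calca and 679 CPM of the C-fibre marker Th.

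Npy and Gal were not alike across the Atf3-high cells. The cell with the most Npy (6483 CPM) had 0 Gal, and Npy passed 100 CPM in 11 of 12 cells (91.7%, 61.5 to 99.8%). The coefficient of variation was 1.04 for Npy and 0.844 for Nts, in the upper tail of the 236 higher genes, of which 213 were above 10 CPM in every Atf3-high cell. Ucn was highest, at 263 CPM, in a cell with 0 Gal, and was at 0 in the cell with the most Gal.

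**Figure D4:**
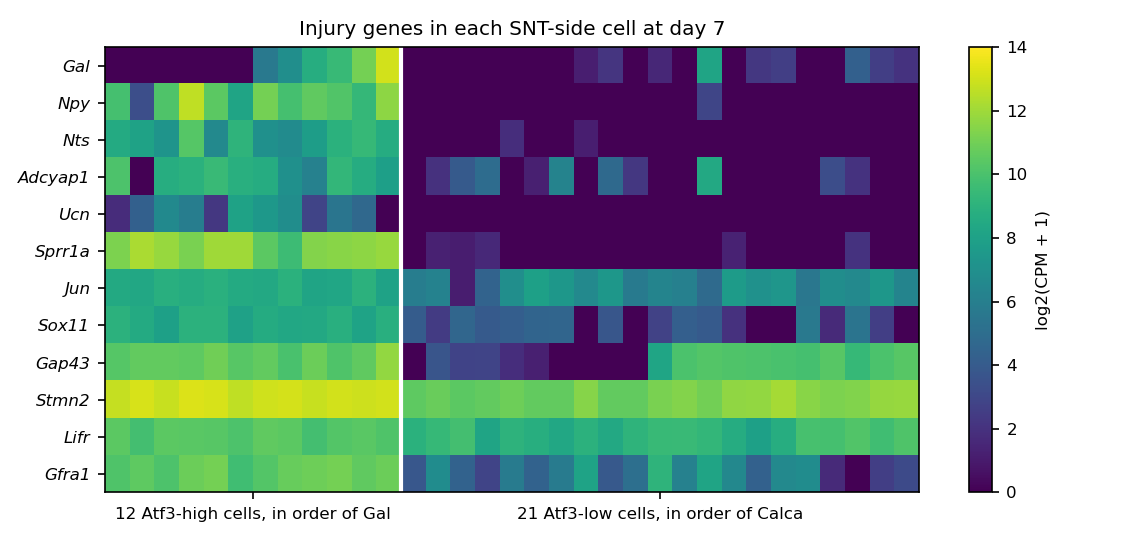
Colour gives log2(CPM + 1) of 12 injury genes (rows) in each SNT-side day 7 cell (columns), with 12 Atf3-high cells ordered by Gal to the left of the white line and 21 Atf3-low cells ordered by Calca to the right. Sprr1a, Sox11, Stmn2 and Gfra1 are higher in every Atf3-high cell than in any Atf3-low cell, and Gal is at 0 in 6 of the Atf3-high cells. Gap43 is low in the Atf3-low cells with little Calca and high in the 10 with much.

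Receptors for growth factors and cytokines moved in both directions. Gfra1, the GDNF receptor subunit that signals through Ret, was 827 to 2159 CPM (median 1643) in Atf3-high and 0 to 557 CPM (median 33.3) in Atf3-low cells, without overlap (log2 ratio 4.14). Control-side cells had 33.3 to 670 CPM. Ret itself had medians of 595 and 75.8 CPM with overlap, and a control-side median of 344 CPM. Ngfr, the low-affinity neurotrophin receptor p75, was lower, at 5.22 to 362 CPM (median 72.5) against 94.9 to 2412 CPM (median 637). The epidermal growth factor receptor gene Egfr and the artemin receptor gene Gfra3 had 0 counts in Atf3-low and control-side cells but were below 10 CPM in the median Atf3-high cell. In all, 4 of 13 measured members were higher and 2 lower.

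Of 16 measured cytokine genes 6 were higher and 1 lower. Csf1, the macrophage and microglia growth factor, was 56.9 to 429 CPM (median 137) in Atf3-high and 0 to 38 CPM (median 1.48) in Atf3-low cells, without overlap (log2 ratio 4.44). Lifr, the receptor of leukaemia inhibitory factor, was 896 to 1524 CPM against 245 to 1178 CPM and was among the most even genes of the Atf3-high cells (coefficient of variation 0.166). Il13ra1, Il31ra, Socs3 and Tnfrsf12a were also higher. Il6st, the shared signalling receptor gp130, was counted as neither over all cells (log2 ratio -0.24) but as higher with little Calca (log2 ratio 1.04).

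Among genes of cell death and survival 5 of 23 were higher, among them the caspase gene Casp6 (median 10.4 against 0 CPM), the apoptosome gene Apaf1 (12.8 against 4.21 CPM), Hrk and Ecel1. Hrk, which encodes a pro-death BH3 protein, had 0 counts in all 21 Atf3-low and 14 control-side cells and a median of 7.64 CPM in Atf3-high cells. Bcl2, which opposes apoptosis, was lower, with medians of 5.18 and 64.0 CPM. The unfolded protein and integrated stress response list had 2 of 15 higher (Eif2ak3 and Sdf2l1) and the heat shock list 1 of 13 (Hspb1, median 1284 against 509 CPM), with 0 lower in either. Beside 6.46% higher over all measured genes, such small counts do not set either list apart. Hspb1 reached 1450 CPM in control-side cells.

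Potassium channel genes were mostly on the lower side. Of 33 measured members 17 were lower and 2 higher, with a median log2 ratio of -2.73. Kcnb2, a delayed rectifier subunit, was 9.60 to 57.1 CPM (median 30.1) in Atf3-high and 78.9 to 404 CPM (median 214) in Atf3-low cells, without overlap. Kcna2, a Kv1 channel of myelinated axons, was 0 to 128 CPM (median 25.2) against 26.9 to 1414 CPM (median 880), with a log2 ratio of -4.55. Control-side cells with little Calca were divided in Kcna2. Some lay inside the Atf3-high range, including cells at 22.8, 32.5, 44.1 and 67.7 CPM, while others had 568, 719 and 853 CPM. Low Kcna2 was therefore not limited to Atf3-high cells. Kcns1, a modulatory subunit, had medians of 2.50 and 49.0 CPM, and the sodium-activated channel gene Kcnt1 had 2.81 and 64.8 CPM. Kcnq3 and the BK channel gene Kcnma1 were the 2 on the higher side (log2 ratios 1.73 and 1.15).

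With little Calca the potassium channel count was 11 lower and 1 higher of 29 measured. Kcna2, Kcnab2, Kcnb2, Kcnc1, Kcnn1, Kcns1 and Kcnt1 were among those lower in both settings. Kcna4, Kcnd1, Kcnd3, Kcnip1, Kcnk18, Kcnmb1, Kcnn2 and Kcns3 were among those lower over all cells but not counted there. Kcna4, for example, had a median of 24.3 CPM over all Atf3-low cells and 0 in those with little Calca.

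Other channels moved less. Of 11 sodium channel genes Scn1a (median 78.7 against 256 CPM), Scn11a and Scn4b were lower and 0 higher. Scn1a and Scn4b were also lower with little Calca, Scn11a was not, and Scn8a, the Nav1.6 channel of nodes of Ranvier, was lower there (log2 ratio -1.28) but not over all cells (-0.94). Among calcium channel genes Cacna2d1, the alpha2delta-1 subunit known to be the target of gabapentin, was higher, at 387 to 1936 CPM (median 842) against 0 to 779 CPM (median 95.7). With little Calca the highest Atf3-low cell had 102 CPM of Cacna2d1, without overlap. Cacnb4 and Cacna2d2 were lower over all cells.

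Among genes of transmission more were lower than higher, and most were counted as neither. Of 31 measured transmitter receptor genes 7 were lower and 1 higher, and of 29 release genes 5 were lower and 1 higher. Gria2 and Grin1, subunits of glutamate receptors, had medians of 7.56 against 39.8 CPM and 30.7 against 99.7 CPM. Htr3a, Htr3b and Chrna7 were lower over all cells only, and their medians in Atf3-low cells with little Calca were 0, 0 and 3.2 CPM. The vesicle protein gene Sv2b did not overlap (28.8 to 171 against 213 to 697 CPM). Snap25 and Rab3a were lower as well, and Syt4 was the 1 release gene that was higher (median 804 against 184 CPM). Gabrg1, the higher receptor gene, had medians of 421 and 12.5 CPM.

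Some genes that define large myelinated neurons were lower in Atf3-high cells, while most class markers were counted as neither. Of 20 large myelinated markers 6 were lower and 0 higher. Nefh had medians of 1507 and 3858 CPM, and with little Calca the Atf3-low median was 5678 CPM. Etv1, a transcription factor of proprioceptors, was 0 to 36.6 CPM in Atf3-high and 0 to 1518 CPM in Atf3-low cells, with a control-side range of 6.21 to 164 CPM. Isl1 and Pou4f1, which maintain sensory identity, each had a log2 ratio of -1.01, though Pou4f1 was not counted as lower with little Calca (-0.63), and Rbfox3, the neuronal marker NeuN, had -2.23. Of 8 measured peptidergic markers 7 were counted as neither, 1 (Gfra3) as higher and 0 as lower, although their median log2 ratio was -5.05. Calca and Scn10a were counted as neither, since 11 of 21 Atf3-low cells had little of them or none. Calca and Scn10a were high in the same 10 Atf3-low cells.

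Metabolic genes showed 1 group on the higher side. Of 17 measured genes of cholesterol synthesis and uptake 6 were higher and 0 lower over all cells, and 12 were higher with little Calca. Mvk and Mvd, enzymes of the mevalonate pathway, had medians of 66.6 against 19.9 CPM and 67.5 against 21.5 CPM. The control-side medians of Mvk and Mvd were 57.7 and 53.1 CPM and lay closer to the Atf3-high cells. In the 11 Atf3-low cells with little Calca the medians were 17.4 CPM for Mvk and 7.88 CPM for Mvd. Of 13 genes of arginine, polyamine and tetrahydrobiopterin metabolism Arg2, Odc1 and Azin1 were higher, with medians of 69.9 against 3.3 CPM for Arg2, and Sat1, which degrades polyamines, was lower.

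Of 20 chromatin enzyme genes Tet3, a DNA demethylase (median 109 against 27.2 CPM), and Hdac9 were higher and Hdac4 and Hdac11 lower. These counts do not set the list apart from the 6.46% higher and 7.88% lower over all measured genes. Of 10 RGS regulators of G protein signals Rgs17 was higher and Rgs4, Rgs10 and Rgs11 lower, Rgs4 with medians of 0 and 445 CPM. Among receptors for peptides, opioids and cannabinoids Cckbr, Npy1r and Cnr1 were higher of 7 measured. Cckbr, the receptor of cholecystokinin, had 0 counts in Atf3-low cells and a median of 29.6 CPM in Atf3-high cells. Npy1r had a log2 ratio of 3.1 in male cells and -0.69 in female cells, so its direction was not the same in both sexes. Of 5 measured early-response genes Arc and Dusp1 were higher.

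Among the cells with Calca below 500 CPM a larger share of genes was counted as higher or lower. Of 9463 measured genes 887 (9.37%) were higher and 964 (10.2%) lower in the 11 Atf3-high cells, with 169 (1.79%) wholly above and 153 (1.62%) wholly below the 11 Atf3-low cells. Of the 623 genes higher over all cells 554 were also higher there, and of the 759 lower genes 543 were also lower, with 0 of either set changing sign. All 74 and 19 genes without overlap over all cells did not overlap there. This restriction was chosen after the data were seen, and it did not make the groups alike in class, since Pvalb passed 100 CPM in 6 of 11 Atf3-low and 2 of 11 Atf3-high cells.

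The ratios were also taken within each sex, whose cells must come from different mice. The genes had been chosen on both sexes together, so the agreement is partly built in and is no replication. Of the 623 higher genes 470 had a log2 ratio above 1 in the female cells (8 against 8) and in the male cells (4 against 13), while 1 had the opposite sign in females and 3 in males. Of the 759 lower genes 520 were beyond -1 in both sexes and 0 had the opposite sign in either. Sprr1a had ratios of 10.56 in females and 11.53 in males, and Kank4 had -6.38 and -5.26.

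The control side gave the background of uninjured ganglia. Between Atf3-low and control-side cells of the same day few genes were counted, with 82 of 9606 measured genes (0.854%) higher and 88 (0.916%) lower in Atf3-low cells by the same rule. Both groups mix cells with much Calca (10 of 21 and 6 of 14) and cells with little. A change limited to 1 of these classes could hardly reach 75% of pairs, so these shares can miss such changes. For 564 of the 623 higher genes the control-side mean was closer to the Atf3-low than to the Atf3-high mean on the log2(CPM + 1) scale, and for 697 of the 759 lower genes likewise. Pvalb was an exception among class markers, at 17.2 CPM or less in all control-side cells and up to 937 CPM in Atf3-low cells.

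The same limits on Atf3 were applied to the 41 SNT-side cells of day 3, which came from female F1 mice of a CAST/EiJ father and a C57BL/6 mother, were sequenced in reads of 50 instead of 75 bp, and share no animal or control with the day 7 cells. They gave 30 Atf3-high cells (951 to 4436 CPM of Atf3, median 1941) and 11 Atf3-low cells (at most 23 CPM), of which 10 had Calca of 500 CPM or more. Of 9752 measured genes 683 (7.00%) were higher and 827 (8.48%) lower. Genes higher on both days numbered 327, which is 52.5% of the day 7 and 47.9% of the day 3 genes, and genes lower on both days numbered 296, or 39% and 35.8%. Only 2 and 3 genes of the day 7 sets were counted the opposite way at day 3. Across the 8909 genes measured on both days, which are not independent of each other, the log2 ratios had a Pearson r of 0.727 and a Spearman rho of 0.629.

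**Figure D5:**
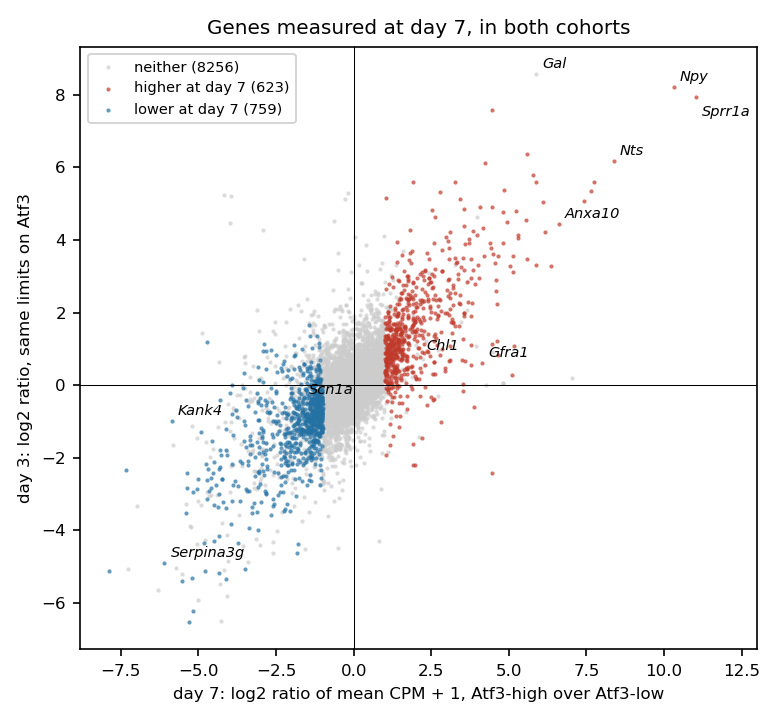
Each point is a gene measured at day 7, with the log2 ratio of mean CPM + 1 of Atf3-high over Atf3-low cells at day 7 (horizontal) and at day 3 (vertical), red for the 623 genes higher and blue for the 759 genes lower at day 7. Sprr1a, Npy and Nts lie high on both axes, while Gfra1 has 4.14 at day 7 and 0.60 at day 3.

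Some genes were not alike on the 2 days. Gfra1 had a log2 ratio of 4.14 at day 7 and 0.60 at day 3. Its day 3 medians were 365 CPM in Atf3-high and 192 CPM in Atf3-low cells. Kank4 had -5.86 and -0.98, and Rassf4 -4.91 and -1.28. Gal passed 100 CPM in 24 of 30 Atf3-high cells at day 3 (80.0%, 61.4 to 92.3%), beside the 5 of 12 at day 7, and Npy did so in 14 of 30 (46.7%, 28.3 to 65.7%), beside 11 of 12. Strain, read length, class of cell and day differ together between these cohorts and cannot be told apart.

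The genes whose values followed Atf3 most closely in rank over the 33 cells were, in order, Tnik, Rasgrf2, Igfn1, Nsg1, Slc7a14, Apba2, Epb4.1l4a, Dtnbp1, Arg2 and Flnc. No correlation over all cells is given, because the cells form 2 separate ranges of Atf3. Tnik, a kinase of the Wnt and JNK pathways, was 282 to 752 CPM (median 467) in Atf3-high and 0 to 108 CPM (median 31.2) in Atf3-low cells, without overlap. Igfn1 and Flnc, genes best known from muscle, had 0 counts in all Atf3-low cells and 1.17 to 48.5 and 1.04 to 56.4 CPM in Atf3-high cells, at least 77.8-fold and 67.7-fold higher in the mean. Within the 12 Atf3-high cells Spearman's rho with Atf3 ran from 0.0559 for Epb4.1l4a to 0.741 for Igfn1, as a description of genes chosen for likeness.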

How the data were processed

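Somata were picked by hand, and full-length cDNA was made with Smart-seq2, which keeps neither strand nor molecular identifiers. The authors converted reads with CASAVA 1.8.2, removed ribosomal reads, aligned with Bowtie2 to RefSeq exons (mm9) and estimated counts with RSEM, as given by the study's methods and the submitters' processing notes. RSEM divides reads among near-identical genes. Although the deposited table is named for TPM, its values are expected counts, mostly whole numbers. No column lacked a sample. Here CPM was computed per cell, and genes with a mean of 10 CPM or more in either group were compared with a pseudocount of 1 CPM, a log2 limit of 1 and a pair limit of 75%. Named genes were the 12 each way with the largest log2 ratio and at least 90% of pairs, members of the lists, and the 10 genes closest to Atf3 in rank. Some list members are counted but not reported by name here. The members, lists and rules were chosen with earlier results of these data known. No label names an animal, so no test was made. Intervals of pooled count ratios cover counting error only, and intervals of shares take cells as independent draws. The procedure was tested on simulated data. Python 3.11.15, numpy 2.4.6, pandas 2.3.3, scipy 1.17.1 and matplotlib 3.10.9 were used.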

Additional observations from a re-analysis of the deposited data

How the results depend on the processing

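No paired analysis was possible because the cells' numbers name cells and no test was made. Requiring a mean of 50 CPM gave 365 higher and 303 lower genes, and a pseudocount of 10 CPM gave 431 lower genes. Cells nearest to the large myelinated class (5 against 8) gave 991 higher and 1262 lower genes, with 445 wholly above and 500 wholly below. A cell was placed in the class whose marker list had the highest mean of scaled log2(CPM + 1). This did not match the groups in class. Its Atf3-low cells included those with Pvalb of 614 to 937 CPM, and its Atf3-high cells had at most 131 CPM. Genes without overlap, wholly above and wholly below, numbered 198 and 121 in female cells, 197 and 146 in male cells, 169 and 153 with Calca below 500 CPM, and 48 and 11 after thinning. Those wholly below were 29 with limits of 1000 and 50 CPM on Atf3 and 68 against control-side cells. Fewer cells raise such counts by construction. Without 1 cell at a time, higher genes numbered 604 to 640, lower 742 to 803, wholly above 74 to 91 and wholly below 19 to 28. Scaling by size factors or quantiles moved the median log2 ratio from -0.13 to -0.08 and -0.06, and the share of calls that were higher from 45.1% to 49.4% and 53.5%. Of 1598 values recomputed for 34 named genes 1549 moved by less than 1 SD and 0 reversed. These genes were chosen in the same cells for large ratios or likeness to Atf3, and most settings left out 1 cell. A reversal was therefore hardly possible, and the count is no measure of how stable other genes are. Depth limits genes with few counts.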
